A study of Mus musculus with 12 samples.

Results

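The 43 genes described here encode the kinases, phosphatases, channels, pumps, buffers and sensors that handle Ca2+ in neurons, and were measured in scratch-injured mouse cortical neurons with and without transforming growth factor β1 (TGF-β1). They were chosen by gene symbol from a list of 9 classes, with earlier results of these data known. All 43 were found among the 55901 genes of the expression table. The cells were primary cortical neurons of neonatal C57BL/6J mice, given arabinosylcytosine for 24 h early in culture to limit dividing glia. Control cultures were not injured. Trauma cultures were scratched with a needle after 7 days and collected 24 h later. Trauma+TGF-β1 cultures were scratched in the same way and kept in 10 ng/ml TGF-β1 for the 24 h. Each of the 3 groups had 4 poly(A) RNA libraries by the labels, while the study's methods name fewer samples than these 12 libraries. All 3 groups carried the arabinosylcytosine treatment, and no unscratched culture given TGF-β1 was analysed here. The labels do not say that the 4 libraries of a group came from separate cultures or animals, so the p-values measure the spread between these libraries, which may be technical.

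Ca2+ is kept low in the neuronal cytosol and enters through plasma membrane channels or leaves the endoplasmic reticulum through IP3 and ryanodine receptors. Calmodulin binds it and switches on Ca2+/calmodulin-dependent kinases (CaM kinases) and the phosphatase calcineurin, which act on synaptic proteins and, through CREB factors, on transcription. Pumps and buffers bring the signal to an end, and STIM proteins sense the filling of the stores. In cortical excitatory neurons CaM kinase II is among the most abundant proteins of the postsynaptic density, where it takes part in synaptic plasticity.

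Reads on genes ranged from 15052486 to 17381671 per library. In a principal component analysis of all tested genes the library labelled Control replicate 1 stood apart, at 58.9 on the second component against 4.21 to 9.02 for the other Control libraries. The neuron marker list (8 genes, all 8 tested and none at 0) summed to 1706 to 1762 FPKM (fragments per kilobase of exon, scaled for depth) in Control, against 1487 to 1601 for Trauma and 1450 to 1502 for Trauma+TGF-β1. The astrocyte list (8 genes, all tested, none at 0) summed to 212.2 to 240.3 FPKM in Control, against 269.5 to 330.9 for Trauma and 284.6 to 305.3 for Trauma+TGF-β1. Of the neuron markers 3 were lower in Trauma than in Control and none was higher, and of the astrocyte markers 7 were higher and none was lower. In Trauma+TGF-β1 against Trauma 1 neuron marker was higher and 1 lower, with a median log2 fold change of 0.054. Of the astrocyte markers 1 was higher and 3 were lower in that comparison. Tubb3 made up most of the neuron sum, with group means of 959.7, 842.4 and 738.7 FPKM, while Map2 was at 105.5, 102.6 and 119.1. The oligodendrocyte lineage list (8 genes, 5 tested) summed to 46.3 to 49.1, 57.5 to 64.7 and 56.9 to 63.4 FPKM in the 3 groups, and the microglia list (8 genes, 5 tested) to 20.9 to 24.9, 31.3 to 39.9 and 25.2 to 29.3 FPKM. The 8 GABAergic markers summed to 225.1 to 246.2, 264.1 to 294.8 and 244.1 to 273.4 FPKM, the 5 glutamatergic markers to 135.1 to 145.1, 141 to 150.3 and 140.2 to 151.6 FPKM, and the 10 vascular and fibroblast markers (2 tested) to 2.44 to 3.23, 3.01 to 4.27 and 3.79 to 4.44 FPKM. The part of these markers in the results on calcium genes was not tested, and in such mixed cultures fewer cells of a type and less RNA per cell cannot be told apart.

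Of the 43 calcium genes 41 had a mean of at least 0.5 FPKM over the 12 libraries and entered the limma fit, which tested 15016 genes. The 2 left out were the store channel Itpr3, at 0.0937 to 0.181 FPKM, and the pump Atp2a3, at 0 to 0.0591 FPKM. A gene was called different where its p, adjusted by Benjamini-Hochberg over all tested genes, was 0.05 or less. By that rule 21 of the 41 differed in at least 1 of the 3 comparisons (12 of them in 2 and none in all 3), and 20 did not. Values of a gene are given for replicates 1 to 4 of each group in turn, and these numbers carry no order. A setting below is 1 of 15 other choices of scaling, filter, correction or model, and a leave-out is 1 of 8 fits without 1 library of the groups compared.

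After the scratch more of these genes were called lower than higher. In Trauma against Control 11 calcium genes were lower and 1, the transcription factor gene Crem, was higher. The 12 calls among 41 compare with a background of 6.00% of all tested genes (2.70% lower and 3.30% higher). The median log2 fold change of the 41 was −0.10, against −0.012 over all tested genes. It was −0.098 over the neuron markers and 0.39 over the astrocyte markers. The part of a shift in cell types in the calcium genes was not tested. The 4 libraries of Trauma lay wholly above or below the 4 Control libraries for 17 of the 41, against 12.9% of all tested genes. All of the 12 called genes were among those 17, and 20 of the 41 had a p of 0.05 or less before adjustment. The number of calls was 6 in the fits without Control replicate 2, without Control replicate 3 or without Trauma replicate 2, was 7 without Control replicate 4 or without Trauma replicate 4, and was 13 without Control replicate 1. With the libraries scaled to their total reads on genes 2 were higher and 8 lower, and with voom on the recovered reads 3 were higher and 8 lower. With a correction for transcript GC content 1 was higher and 17 were lower. Among all tested genes, 655 were higher and 223 lower with scaling to total reads, against 496 and 405 as reported. That split was 862 and 286 with voom and 487 and 761 with the GC correction.

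In Trauma+TGF-β1 against Trauma 4 of 41 were called, with Stim2 higher and Nrgn, Prkaca and Camk2b lower, a share of 9.76% beside a background of 12.1% (7.71% lower and 4.40% higher). The median of the 41 was 0.062, against 0.0025 over all genes tested, and was −0.012 after correction for gene length. The libraries of the groups did not overlap for 10 of the 41, all 4 called genes included, against 22.2% of all tested genes, and 15 had a p of 0.05 or less before adjustment. The count was 1 without Trauma replicate 2 or without Trauma+TGF-β1 replicate 2, and 2 without Trauma replicate 1 or without Trauma+TGF-β1 replicate 4. The split was 11 higher and 1 lower with quantile normalization, 2 higher and 2 lower with a correction for transcript GC content, and 2 higher and 3 lower with scaling to total reads. With voom, which changes the model as well as the scaling, it was 4 higher and 5 lower. Among all tested genes, 1125 were higher and 927 lower with quantile normalization, against 661 and 1158 as reported. That split was 264 and 554 with the GC correction, 709 and 1161 with scaling to total reads and 1096 and 1472 with voom.

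In Trauma+TGF-β1 against Control 17 of 41 were called, 4 higher and 13 lower, against a background of 16.6% (6.14% higher and 10.4% lower). The median of the 41 was −0.025 and that of all genes −0.009. For 21 of the 41 the libraries of the groups did not overlap, all 17 called genes included, against 18.5% of all tested genes, and 23 had a p of 0.05 or less before adjustment. Without Control replicate 1 the count was 18. Quantile normalization gave 8 higher and 5 lower, scaling to total reads 8 higher and 10 lower, voom 9 higher and 12 lower, and the GC correction 3 higher and 14 lower. Among all tested genes these settings gave, in turn, 1134 higher and 918 lower, 1340 and 1095, 1677 and 1223, and 671 and 1343. As reported, that split was 922 and 1565. Each pair of the 3 comparisons shares a group of libraries, so their calls are not independent.

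**Figure D1:**
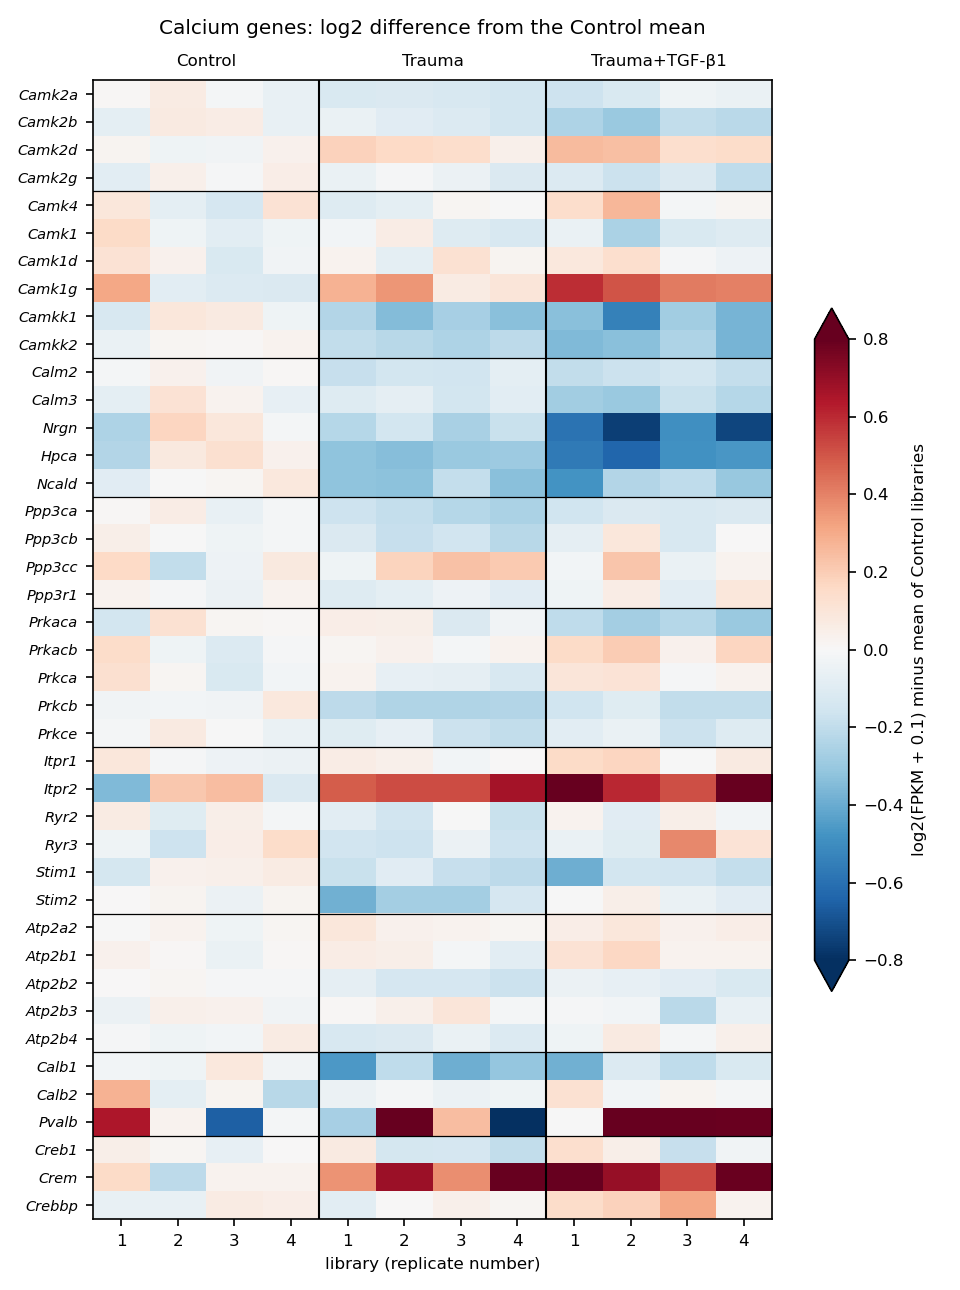
Each row is 1 of the 41 tested calcium genes, ordered by class (black lines), and each column 1 of the 12 libraries; colour gives log2(FPKM + 0.1) minus the mean of the 4 Control libraries, and values beyond 0.8 in either direction have the end colours. Nrgn, Hpca and Camkk2 are blue in all 8 scratched libraries, and Crem and Itpr2 are red in all 8. Camk1g is red in the 4 Trauma+TGF-β1 libraries and paler red in the 4 Trauma libraries. Stim2 is blue in the 4 Trauma libraries and paler in the treated ones.

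The sequences before the start of 3 of the 4 genes called in Trauma+TGF-β1 against Trauma are shown, since these are the members whose transcript level differed with TGF-β1. They come from RefSeq promoter windows (build GRCm38.p6) and were trimmed to the bases upstream of both the RefSeq start and the start of the gene in the expression table. The window of Camk2b lay inside the gene and is not printed. Capitals mark the GC box letters GGGCGG or their reverse complement.
Nrgn, 91 bases on the minus strand, chr9:37552905-37552995: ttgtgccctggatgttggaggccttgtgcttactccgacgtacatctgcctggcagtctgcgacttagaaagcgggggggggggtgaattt
Prkaca, 250 bases on the plus strand, chr8:83972728-83972977: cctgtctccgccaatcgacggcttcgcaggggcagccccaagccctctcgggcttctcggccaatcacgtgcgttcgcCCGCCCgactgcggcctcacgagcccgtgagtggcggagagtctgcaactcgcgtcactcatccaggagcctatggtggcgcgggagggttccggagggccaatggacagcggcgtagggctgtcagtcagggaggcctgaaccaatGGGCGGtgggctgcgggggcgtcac
Stim2, 226 bases on the plus strand, chr5:53998273-53998498: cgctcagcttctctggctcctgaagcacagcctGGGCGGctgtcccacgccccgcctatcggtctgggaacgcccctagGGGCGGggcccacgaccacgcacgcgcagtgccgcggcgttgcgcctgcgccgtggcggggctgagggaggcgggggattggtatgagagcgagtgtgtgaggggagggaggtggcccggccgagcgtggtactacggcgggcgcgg
The printed stretches of Prkaca and Stim2 hold 2 GC boxes each and that of Nrgn none, since the box of its RefSeq window lies in the 159 bases trimmed away. Of the 43 genes 28 had a RefSeq window of 250 bases before the start, and GGGCGG on either strand was present for 22 of the 28, against 35.4% of all 27025 genes with a window. The median GC content was 68.6% in their windows and 52.4% over all windows. CAGACA, a letter string of Smad binding elements, was present for 6 of the 28 (Atp2b2, Camk1d, Camk1g, Camkk1, Prkcb and Pvalb), against 19.3% of all genes. The full cAMP response element TGACGTCA was found for none of the 28 (1.77% of all genes), TGACGT, which is contained in it, for Ppp3r1 alone (7.29%), and the AP-1 string TGANTCA for none (7.82%). A match describes letters, and says nothing of a factor bound there.

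CaM kinase II, the holoenzyme built from 4 gene products, was carried mainly by its β and α subunit genes. Camk2b (β) was at 142, 157, 156 and 144 FPKM in Control, at 144, 140.3, 139 and 135 in Trauma and at 126, 122, 131 and 129 in Trauma+TGF-β1. All 4 Trauma+TGF-β1 libraries were below every Trauma and every Control library, and it fell in Trauma+TGF-β1 against Trauma (log2 fold change −0.14, standard error 0.04, adjusted p = 0.0498) and against Control (log2 fold change −0.24, standard error 0.04, adjusted p = 0.00318). The Trauma and Control libraries overlapped (log2 fold change −0.10, standard error 0.04, adjusted p = 0.193). Camk2a (α) was at 86.5, 89.6, 84.8 and 82.3 FPKM in Control, at 78.8, 79.3, 78.3 and 77.6 in Trauma and at 76.3, 78.7, 83.6 and 82.8 in Trauma+TGF-β1. Its 4 Trauma libraries lay below the 4 Control libraries without passing the test (log2 fold change −0.13, standard error 0.04, adjusted p = 0.0652), and the treated libraries overlapped both other groups. Camk2d (δ), the minor form that is more abundant outside neurons, was at 7.28, 6.99, 7.04 and 7.34 FPKM in Control, at 8.15, 8, 7.92 and 7.36 in Trauma and at 8.55, 8.47, 7.87 and 7.92 in Trauma+TGF-β1. Every scratched library was above every Control library, and the gene rose in Trauma+TGF-β1 against Control (log2 fold change 0.19, standard error 0.05, adjusted p = 0.0184) while Trauma against Control gave 0.13 with an adjusted p of 0.145 in limma. Camk2g (γ) was at 29, 31.7, 30.6 and 32 FPKM in Control, at 29.6, 30.5, 29.8 and 28.4 in Trauma and at 28.6, 27.3, 28.4 and 26.7 in Trauma+TGF-β1. It fell in Trauma+TGF-β1 against Control, where the groups did not overlap (log2 fold change −0.15, standard error 0.04, adjusted p = 0.0266). The fall of Camk2b after TGF-β1 was lost in all 8 leave-outs (adjusted p 0.0543 to 0.137) and in 9 of 15 other settings, and that against Control was lost with quantile normalization (adjusted p = 0.0534). The call of Camk2d against Control was lost without Control replicate 2 or 3 or without Trauma+TGF-β1 replicate 2 (adjusted p 0.0527 to 0.0571), and in 4 of 15 other settings, those with a correction for gene length or GC content. That of Camk2g was lost without Control replicate 2, 3 or 4 or without Trauma+TGF-β1 replicate 2 or 4 (adjusted p 0.0575 to 0.0762) and in 6 of 15 other settings.

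The balance of the CaM kinase II subunit genes was also read within each library, where a scaling factor of the library cancels. A trend with transcript GC content need not cancel where the genes of a ratio differ in it. Camk2a over Camk2b was 0.543 to 0.609 in Control, against 0.546 to 0.574 for Trauma and 0.604 to 0.645 for Trauma+TGF-β1. The treated libraries were all above the Trauma libraries and overlapped Control through Control replicate 1. Camk2b made up 54.7% ± 1.07 (SD, n = 4) of the summed CaM kinase II FPKM in Control, against 54.6% ± 0.449 for Trauma and 52.2% ± 0.46 for Trauma+TGF-β1. Camk2d made up 2.62% ± 0.159, 3.07% ± 0.0751 and 3.38% ± 0.232 in the same order. The 4 genes together were at 274 ± 10.2 FPKM in Control, against 256 ± 5.26 for Trauma and 243 ± 6.42 for Trauma+TGF-β1. These shares and ratios are descriptions and were not tested.

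**Figure D2:**
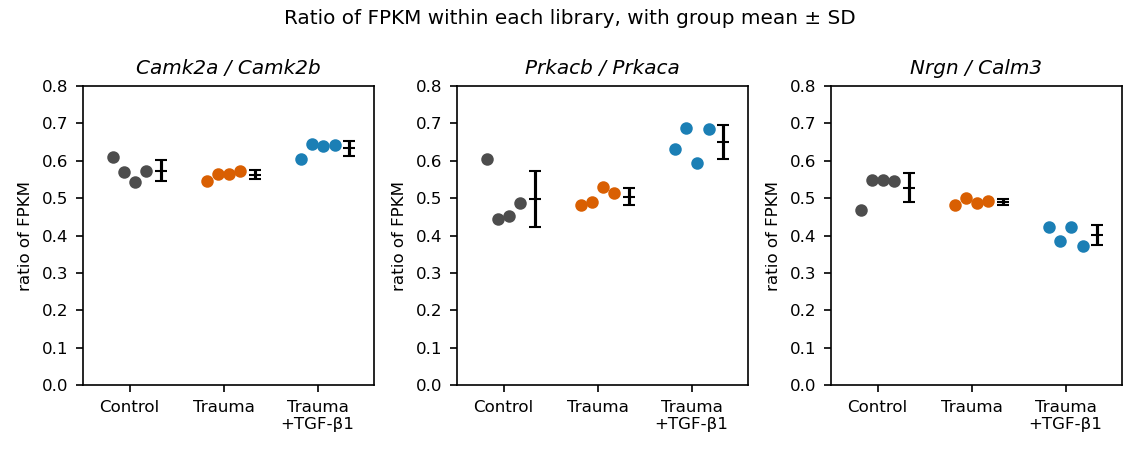
Ratio of FPKM of a pair of genes within each library (points) with the group mean and SD (bars), for Camk2a over Camk2b, Prkacb over Prkaca and Nrgn over Calm3. In all 3 panels the 4 Trauma+TGF-β1 libraries lie outside the range of the 4 Trauma libraries, and in the first 2 Control replicate 1 falls within the range of the treated libraries.

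The CaM kinase kinases, which phosphorylate and activate CaM kinases I and IV, fell after the scratch and CaM kinase Iγ rose in the treated cultures. Camkk2, the most abundant gene of this class, was at 35.4, 37.1, 36.9 and 37.3 FPKM in Control, at 32, 31.4, 30.9 and 31.7 in Trauma and at 28.7, 29, 30.9 and 28.3 in Trauma+TGF-β1. All 8 scratched libraries were below the 4 Control libraries, and Camkk2 fell in Trauma against Control (log2 fold change −0.22, standard error 0.03, adjusted p = 0.0035) and in Trauma+TGF-β1 against Control (log2 fold change −0.33, standard error 0.03, adjusted p = 0.000168). With TGF-β1 against Trauma the libraries overlapped (log2 fold change −0.11, standard error 0.03, adjusted p = 0.0632), and after a correction for gene length the gene was called lower (−0.19, adjusted p = 0.0189). Camkk1 was at 11.5, 13.5, 13.3 and 12.3 FPKM in Control, at 10.7, 9.89, 10.5 and 10 in Trauma and at 9.98, 8.65, 10.4 and 9.75 in Trauma+TGF-β1. The scratched libraries were again all below Control, and it fell in Trauma (log2 fold change −0.30, standard error 0.06, adjusted p = 0.0198) and in Trauma+TGF-β1 (log2 fold change −0.38, standard error 0.06, adjusted p = 0.00294) against Control. Camk1g, which encodes CaM kinase Iγ, a membrane-anchored kinase with a part in dendrite growth, was at 15.4, 11.7, 11.5 and 11.4 FPKM in Control, at 15.1, 15.8, 13 and 13.3 in Trauma and at 18.7, 17.6, 16.6 and 16.5 in Trauma+TGF-β1. It rose in Trauma+TGF-β1 against Control (log2 fold change 0.48, standard error 0.10, adjusted p = 0.00721), and the treated libraries were above every library of both other groups, with 0.28 and an adjusted p of 0.0792 in limma against Trauma. Without Control replicate 1, the highest Control library for this gene, Camk1g was also called higher in Trauma against Control (0.30, adjusted p = 0.0348 in limma). Camk4, the nuclear kinase that phosphorylates CREB, ranged from 15.1 to 20 FPKM, Camk1d from 13 to 15.5 and Camk1 from 6.86 to 9.11, with overlapping groups in all comparisons. Camk1 shares its locus with Ogg1 on the opposite strand, which averaged 3.01 FPKM, and strand use in counting is not given in the sources used here, so reads of the pair may not be told apart. The calls of Camkk2 and of Camk1g and Camkk1 in Trauma+TGF-β1 against Control held in all 15 settings and all 8 leave-outs, and that of Camkk1 in Trauma was lost without Control replicate 2 or 3 or without Trauma replicate 2 or 4 (adjusted p 0.0526 to 0.0645).

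All 5 genes of calmodulin and the neuronal calcium sensors were lower in Trauma+TGF-β1 than in Control, except that Calm3 turned to 0.06 (adjusted p = 0.429 in limma) with quantile normalization. Calm3, the most abundant of the 43 genes, encodes the same calmodulin protein as Calm2. Calm3 was at 818, 933, 879 and 826 FPKM in Control, at 804, 819.6, 780.0 and 813 in Trauma and at 712, 702, 764 and 737 in Trauma+TGF-β1. Its treated libraries were below every Trauma and every Control library (log2 fold change −0.24, standard error 0.05, adjusted p = 0.00549 against Control and log2 fold change −0.14, standard error 0.05, adjusted p = 0.0677 against Trauma), and Trauma overlapped Control. Calm2 was at 588, 607, 581 and 596 FPKM in Control, at 522, 535, 533 and 561 in Trauma and at 517, 527, 534 and 519 in Trauma+TGF-β1. All scratched libraries were below Control, and Calm2 fell in the Trauma group (log2 fold change −0.14, standard error 0.03, adjusted p = 0.0248) and in Trauma+TGF-β1 (log2 fold change −0.18, standard error 0.03, adjusted p = 0.00422) against Control. The call of Calm2 in Trauma was lost without Control replicate 2 or 4 or without Trauma replicate 1, 2 or 3 (adjusted p 0.059 to 0.0724) and in 5 of 15 other settings, and with quantile normalization its call in Trauma+TGF-β1 against Control was lost as well (adjusted p = 0.323). The call of Calm3 was lost with the GC correction, with and without a replicate block, too.

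Neurogranin, the protein of Nrgn, binds calmodulin at low Ca2+ in dendritic spines and so sets how much of it is free. Nrgn was at 384, 512, 483 and 449.9 FPKM in Control, at 387, 410.0, 379.5 and 401 in Trauma and at 301, 269.8, 324 and 273 in Trauma+TGF-β1. The treated libraries lay below all 8 others, while Trauma and Control overlapped through Control replicate 1, at 384 FPKM. Nrgn fell in Trauma+TGF-β1 against Trauma (log2 fold change −0.44, standard error 0.08, adjusted p = 0.0106) and against Control (log2 fold change −0.64, standard error 0.08, adjusted p = 0.000548), and both calls held in all 15 settings and all 8 leave-outs. In Trauma against Control it gave −0.20 with an adjusted p of 0.188, and −0.29 with an adjusted p of 0.0296 in limma without Control replicate 1. Nrgn over Calm3 was 0.469 to 0.549 in Control, against 0.482 to 0.50 for Trauma and 0.371 to 0.424 for Trauma+TGF-β1, and Nrgn over Camk2a was 4.43 to 5.71, 4.84 to 5.17 and 3.30 to 3.95. Both ratios were lower in the treated libraries than in every other library.

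Hippocalcin and neurocalcin δ are myristoylated sensors that move to membranes when Ca2+ rises. Hpca was at 51.9, 64.6, 66.8 and 62.6 FPKM in Control, at 48.9, 48.4, 49.8 and 50 in Trauma and at 41.2, 39.4, 43.6 and 44.3 in Trauma+TGF-β1. All scratched libraries were below Control, and the treated libraries were below Trauma as well. Hpca fell in Trauma against Control (log2 fold change −0.31, standard error 0.07, adjusted p = 0.0194) and in Trauma+TGF-β1 against Control (log2 fold change −0.54, standard error 0.07, adjusted p = 0.000511), and against Trauma stood just outside the threshold (log2 fold change −0.23, standard error 0.07, adjusted p = 0.0518). Ncald was at 25.6, 27.3, 27.6 and 29 FPKM in Control, at 21.8, 21.8, 23.9 and 21.6 in Trauma and at 19.6, 23.2, 23.7 and 22.1 in Trauma+TGF-β1. It fell by about the same amount in Trauma (log2 fold change −0.29, standard error 0.06, adjusted p = 0.0152) and in Trauma+TGF-β1 (log2 fold change −0.31, standard error 0.06, adjusted p = 0.00667) against Control, and the scratched groups overlapped (log2 fold change −0.01, standard error 0.06, adjusted p = 0.937). The call of Hpca in Trauma was lost without Control replicate 2, 3 or 4 or without Trauma replicate 2 (adjusted p 0.0518 to 0.0565) and in the fit of the 2 groups alone (adjusted p = 0.0541), and that of Ncald without Trauma replicate 4 (adjusted p = 0.0523).

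**Figure D3:**
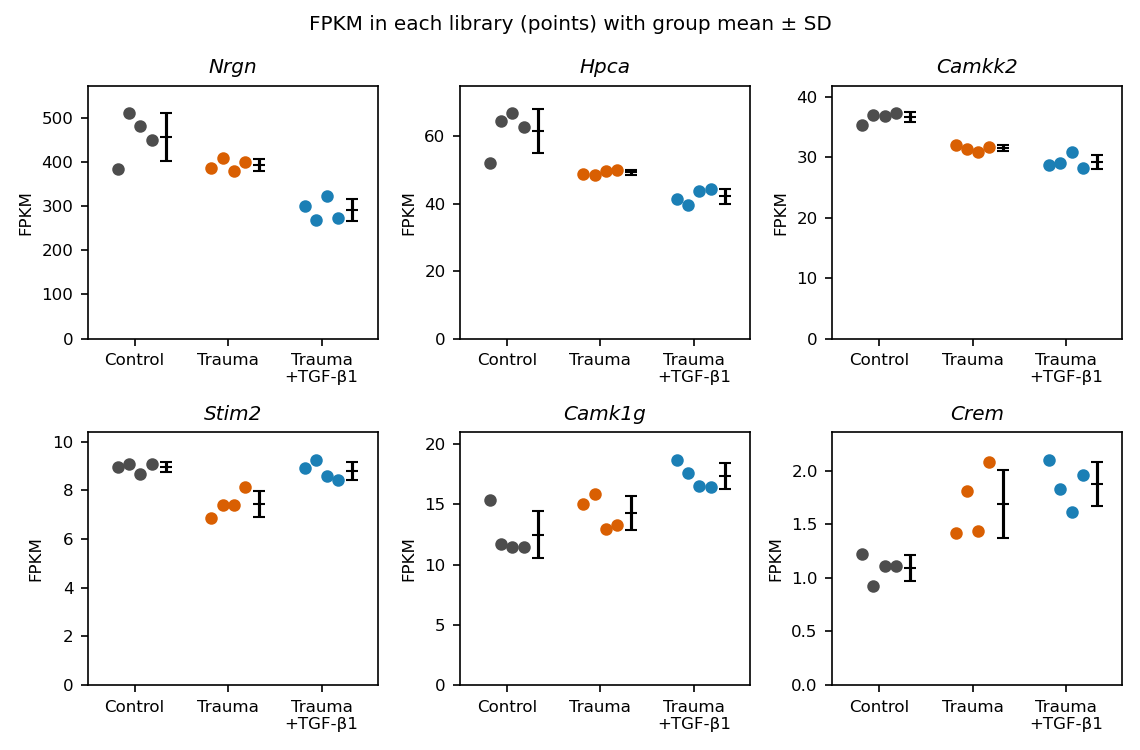
FPKM of 6 calcium genes in each of the 12 libraries (points) with the group mean and SD (bars), on axes that start at 0. Nrgn and Hpca step down to the Trauma+TGF-β1 libraries, Stim2 is low in the 4 Trauma libraries alone, and the treated libraries of Camk1g (16.5 to 18.7 FPKM) lie above all others.

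Calcineurin, the Ca2+/calmodulin-dependent phosphatase, has a catalytic A subunit (Ppp3ca, Ppp3cb or Ppp3cc) and a regulatory B subunit (Ppp3r1). Ppp3ca was at 69.5, 71.8, 66.3 and 68.2 FPKM in Control, at 61.4, 60.3, 58.8 and 57.9 in Trauma and at 61.6, 63.7, 63 and 63.5 in Trauma+TGF-β1. The 4 Trauma libraries were below and the 4 treated libraries between Trauma and Control without overlap, and Ppp3ca fell in Trauma (log2 fold change −0.21, standard error 0.03, adjusted p = 0.00284) and in Trauma+TGF-β1 (log2 fold change −0.13, standard error 0.03, adjusted p = 0.0182) against Control. The difference of Trauma+TGF-β1 from Trauma did not pass (log2 fold change 0.08, standard error 0.03, adjusted p = 0.132). Ppp3cb was at 58.8, 56.8, 55.6 and 56.3 FPKM in Control, at 52.4, 50, 51.1 and 48.6 in Trauma and at 54.1, 60.4, 52 and 56.8 in Trauma+TGF-β1. Its Trauma libraries were below Control (log2 fold change −0.17, standard error 0.05, adjusted p = 0.0468), and the treated libraries overlapped both groups. Ppp3r1, the most abundant of the class, was at 113, 110.1, 107 and 113 FPKM in Control, at 103, 105, 108 and 104 in Trauma and at 108, 115, 104 and 118 in Trauma+TGF-β1. Its groups overlapped in all 3 comparisons, with adjusted p of 0.174 to 0.933 in limma. Ppp3cc, the scarcest form, ranged from 5.79 to 7.85 FPKM with overlapping groups. With quantile normalization Ppp3ca, Ppp3cb and Ppp3r1 were called higher in Trauma+TGF-β1 than in Trauma (0.17, 0.22 and 0.19). With the GC correction the same genes gave 0.013, −0.0015 and −0.036 and were not called. That correction called Ppp3cb (−0.16, adjusted p = 0.0241 in limma) and Ppp3r1 (−0.11, adjusted p = 0.0454 in limma) lower in Trauma+TGF-β1 than in Control. The call of Ppp3ca in Trauma held in all settings and leave-outs, that of Ppp3ca in Trauma+TGF-β1 was lost without Control replicate 2 (adjusted p = 0.0536) and in 3 of 15 other settings, and that of Ppp3cb was lost in all 8 leave-outs (adjusted p 0.0558 to 0.14) and 6 of 15 other settings.

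Of the protein kinase genes, the cAMP-dependent kinase (PKA) subunit Prkaca fell with TGF-β1. Prkcb, which encodes a Ca2+-activated protein kinase C, fell after the scratch. Prkaca was at 83.8, 101, 93.7 and 93.3 FPKM in Control, at 96.1, 95.7, 85.6 and 91 in Trauma and at 80.6, 76.9, 79 and 75.3 in Trauma+TGF-β1. Every treated library was below every other library, and Prkaca fell in Trauma+TGF-β1 against Trauma (log2 fold change −0.24, standard error 0.06, adjusted p = 0.0194) and against Control (log2 fold change −0.25, standard error 0.06, adjusted p = 0.0102) while Trauma and Control overlapped (log2 fold change −0.01, standard error 0.06, adjusted p = 0.94). Prkacb, the second catalytic subunit gene, ranged from 42.5 to 50.8 FPKM in Control, against 45.3 to 47 for Trauma and 46.95 to 52.8 for Trauma+TGF-β1, and was not called. Prkacb over Prkaca was 0.444 to 0.606 in Control, against 0.481 to 0.530 for Trauma and 0.594 to 0.687 for Trauma+TGF-β1, where the treated libraries were all above Trauma and overlapped Control through Control replicate 1. Their transcripts had a GC content of 45.4% (Prkacb) and 54.9% (Prkaca). In Trauma+TGF-β1 against Trauma Prkacb gave 0.125 as reported and 0.059 with the GC correction, and Prkaca −0.24 and −0.14. Prkcb (PKCβ) was at 32.8, 33, 32.8 and 35.5 FPKM in Control, at 29, 28.4, 28.4 and 28.5 in Trauma and at 30, 31.4, 29.2 and 29.3 in Trauma+TGF-β1. All scratched libraries were below Control, and the gene fell in Trauma (log2 fold change −0.23, standard error 0.04, adjusted p = 0.00308) and in Trauma+TGF-β1 (log2 fold change −0.16, standard error 0.04, adjusted p = 0.0112). The treated libraries of Prkcb were all above Trauma without passing the test (log2 fold change 0.07, adjusted p = 0.23 in limma). Inside Prkcb lies Gm14388, a processed pseudogene on the same strand at a mean of 5.45 FPKM. Prkca (PKCα) ranged from 33.7 to 40.3 FPKM and the Ca2+-independent Prkce (PKCε) from 49.7 to 59.7. Neither was called, although the Prkce libraries of Trauma and of Trauma+TGF-β1 were all below Control (adjusted p = 0.0827 and 0.105 in limma). The call of Prkaca with TGF-β1 against Trauma was lost without Trauma replicate 1 or 2 or without Trauma+TGF-β1 replicate 2 or 4 (adjusted p 0.0524 to 0.0587), with quantile normalization (−0.12, adjusted p = 0.105) and with the GC correction (−0.14, adjusted p = 0.118). Against Control the calls of Prkaca (−0.12, adjusted p = 0.107) and Prkcb (−0.07, adjusted p = 0.257) were lost with quantile normalization, and that of Prkcb also with the GC correction and a replicate block (adjusted p = 0.0569).

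Of the channels and sensors of the endoplasmic reticulum, Stim2 was called lower after the scratch and higher with TGF-β1. In the fit as reported no other of the 43 genes was called in both. The pump gene Atp2b4 also had all its Trauma libraries below the others, without being called. STIM2 senses small drops of store Ca2+ and opens plasma membrane ORAI channels. Stim2 was at 8.95, 9.09, 8.66 and 9.1 FPKM in Control, at 6.84, 7.38, 7.41 and 8.14 in Trauma and at 8.93, 9.26, 8.61 and 8.41 in Trauma+TGF-β1. The 4 Trauma libraries were below all 8 others, while Trauma+TGF-β1 overlapped Control. Stim2 fell in Trauma against Control (log2 fold change −0.27, standard error 0.05, adjusted p = 0.0145), rose in Trauma+TGF-β1 against Trauma (log2 fold change 0.24, standard error 0.05, adjusted p = 0.0184) and gave −0.02 (standard error 0.05, adjusted p = 0.802 in limma) in Trauma+TGF-β1 against Control. The rise was lost without Trauma replicate 2 or without Trauma+TGF-β1 replicate 2 (adjusted p 0.0506 to 0.0587), and with the GC correction together with a replicate block (adjusted p = 0.0664). Stim1, its close relative, was at 6.92, 7.82, 7.83 and 7.98 FPKM in Control, at 6.74, 7.16, 6.69 and 6.58 in Trauma and at 5.79, 6.89, 6.83 and 6.66 in Trauma+TGF-β1. It fell in Trauma+TGF-β1 against Control (log2 fold change −0.22, standard error 0.07, adjusted p = 0.0397), with Control replicate 1 the lowest Control library and Trauma overlapping both groups. That call was lost without Control replicate 2, 3 or 4 or without Trauma+TGF-β1 replicate 1, 2 or 4 (adjusted p 0.0526 to 0.0973) and in 6 of 15 other settings. Stim2 over Stim1 was 1.11 to 1.29 in Control, against 1.02 to 1.24 for Trauma and 1.26 to 1.54 for Trauma+TGF-β1.

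Of the store channels, Itpr1, the main neuronal IP3 receptor and the highest gene of the class, was at 9.94, 9.26, 9.05 and 9.01 FPKM in Control, at 9.7, 9.57, 9.17 and 9.34 in Trauma and at 10.3, 10.5, 9.29 and 9.8 in Trauma+TGF-β1. Its groups overlapped in every comparison. Itpr2, an IP3 receptor gene that is prominent in astrocytes, was at 0.479, 0.759, 0.778 and 0.583 FPKM in Control, at 0.932, 0.96, 0.963 and 1.07 in Trauma and at 1.24, 1.02, 0.956 and 1.26 in Trauma+TGF-β1. All 8 scratched libraries were above the 4 Control libraries, and Itpr2 rose in Trauma+TGF-β1 against Control (log2 fold change 0.71, standard error 0.17, adjusted p = 0.0166). In Trauma against Control it gave 0.55 with an adjusted p of 0.0923 and was called with voom (0.66, adjusted p = 0.00538). The call against Control was lost without Trauma+TGF-β1 replicate 4 (adjusted p = 0.0516), and in 2 of 14 other settings. Gm15720, a processed pseudogene on the same strand, overlaps Itpr2 and averaged 0.298 FPKM, against 0.911 for Itpr2. Itpr2 made up 6.46% ± 1.51 of the summed FPKM of the IP3 receptor genes in Control, against 9.29% ± 0.617 for Trauma and 9.95% ± 1.14 for Trauma+TGF-β1. The ryanodine receptor genes Ryr2, at 5.43 to 6.43 FPKM, and Ryr3, at 2.12 to 3.16 FPKM, were not called. Ryr3 overlaps Aven on the opposite strand, which averaged 1.48 FPKM.

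Of the 5 tested pump genes Atp2b2 was called, in Trauma against Control. Atp2a2, which encodes SERCA2, the pump that refills the stores, was at 119.9, 122, 118 and 121 FPKM in Control, at 128, 123, 123 and 122 in Trauma and at 125, 128, 123 and 125 in Trauma+TGF-β1. The treated libraries lay above the Control libraries without passing the test (log2 fold change 0.06, standard error 0.03, adjusted p = 0.184). Atp2b2, a fast plasma membrane pump of neurons, was at 54.7, 55.2, 54.1 and 54.2 FPKM in Control, at 51.9, 49.8, 49.6 and 48.4 in Trauma and at 52.8, 52.2, 51.3 and 50.2 in Trauma+TGF-β1. The scratched libraries were all below Control, and the gene fell in Trauma (log2 fold change −0.13, standard error 0.03, adjusted p = 0.0264) but in Trauma+TGF-β1 gave −0.08 with an adjusted p of 0.0902. That call was lost without Control replicate 2, 3 or 4 or without Trauma replicate 2, 3 or 4 (adjusted p 0.0519 to 0.0885) and in 8 of 15 other settings. The other plasma membrane pumps were not called: Atp2b1 at 36.5 to 43.5 FPKM, Atp2b4 at 17.7 to 20.3 and Atp2b3 at 8.40 to 10.4. The Trauma libraries of Atp2b4 (17.7 to 18.6 FPKM) lay below all Control (18.9 to 20.2) and all treated libraries (18.9 to 20.3). Its limma adjusted p was 0.146 in Trauma against Control and 0.0613 in Trauma+TGF-β1 against Trauma. Quantile normalization called Atp2a2, Atp2b1, Atp2b2 and Atp2b4 higher in Trauma+TGF-β1 than in Trauma (0.10, 0.15, 0.13 and 0.16). In Trauma+TGF-β1 against Control, Atp2a2 and Atp2b1 were called higher with quantile normalization (0.16 and 0.18), with voom (0.10 and 0.13) and with scaling to total reads (0.10 and 0.13).

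The cytosolic buffers mark sets of interneurons as well as binding Ca2+. Calbindin, from Calb1, was at 6.93, 6.88, 7.46 and 6.89 FPKM in Control, at 5.09, 6.09, 5.33 and 5.67 in Trauma and at 5.38, 6.52, 6.11 and 6.47 in Trauma+TGF-β1. All scratched libraries were below Control, and Calb1 fell in Trauma (log2 fold change −0.34, standard error 0.07, adjusted p = 0.017), while Trauma+TGF-β1 against Control gave −0.20 with an adjusted p of 0.0772. The call in Trauma was lost without Control replicate 3 or without Trauma replicate 3 (adjusted p 0.0501 to 0.0521). Calretinin, from Calb2, was at 34, 26.6, 28.5 and 24.1 FPKM in Control, at 27.2, 27.8, 27.1 and 27.5 in Trauma and at 30.5, 27.6, 28.5 and 27.8 in Trauma+TGF-β1. Its groups overlapped. Parvalbumin, from Pvalb, was scarce at 0.162 to 1.07 FPKM, and its standard error of 0.44 on the log2 scale was the largest among the 41 genes.

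CREB1 and its relatives bind cAMP response elements, and CREB-binding protein is their coactivator. Crem, whose short products repress such elements, was at 1.22, 0.928, 1.11 and 1.11 FPKM in Control, at 1.42, 1.81, 1.44 and 2.08 in Trauma and at 2.1, 1.83, 1.61 and 1.96 in Trauma+TGF-β1. Every scratched library was above every Control library, and Crem rose in Trauma (log2 fold change 0.57, standard error 0.14, adjusted p = 0.036) and in Trauma+TGF-β1 (log2 fold change 0.73, standard error 0.14, adjusted p = 0.00594) against Control, the largest log2 fold change among the called members in each of these comparisons. The scratched groups overlapped (log2 fold change 0.16, standard error 0.14, adjusted p = 0.519). The call in Trauma was lost without Control replicate 2, 3 or 4 or without Trauma replicate 2 or 4 (adjusted p 0.0694 to 0.108) and in 5 of 15 other settings, and that in Trauma+TGF-β1 held in all. Crebbp, the highest of the class, was at 7.55, 7.55, 8.24 and 8.19 FPKM in Control, at 7.43, 7.89, 8.11 and 7.95 in Trauma and at 8.71, 8.97, 9.79 and 8.03 in Trauma+TGF-β1. Trauma+TGF-β1 overlapped both other groups (log2 fold change 0.17, standard error 0.06, adjusted p = 0.0852 against Trauma). Creb1 ranged from 3.85 to 4.87 FPKM with overlapping groups.

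**Figure D4:**
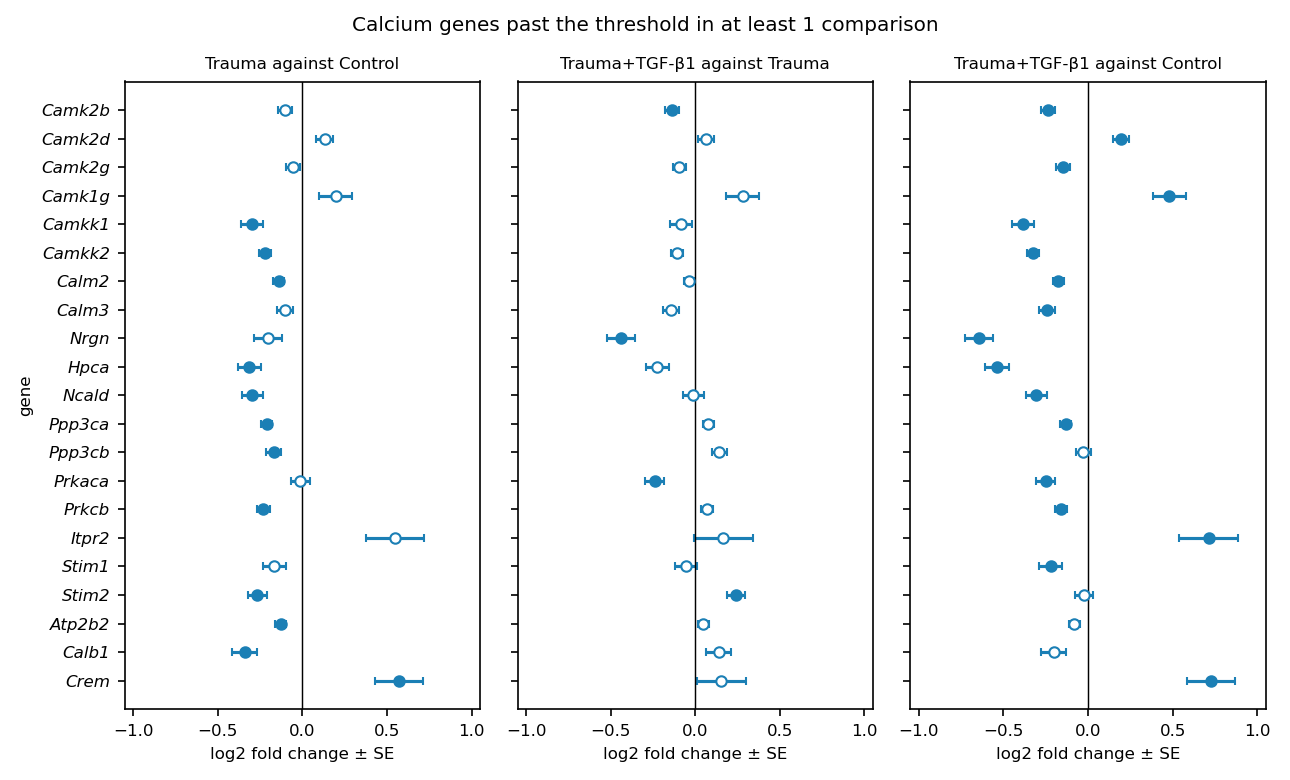
Log2 fold change with its standard error for the 21 calcium genes called in at least 1 comparison, in 1 panel per comparison; filled points have a limma adjusted p of at most 0.05. Most filled points lie left of 0, with Camk2d, Camk1g, Itpr2, Crem and, after TGF-β1, Stim2 on the right.

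The direction of small differences with TGF-β1 depended on the scaling. Across 14699 genes the log2 fold change in Trauma+TGF-β1 against Trauma ran with transcript GC content at a Spearman rho of −0.465, against 0.0877 in Trauma against Control. In Trauma+TGF-β1 against Control the rho was −0.36. The median GC content of the 41 calcium genes was 49.5%, close to that of all tested genes. Their median gene length was 7427 bases, against 3865 over all tested genes. With gene length the rho was 0.217 in Trauma+TGF-β1 against Trauma, −0.0891 in Trauma against Control and 0.152 in Trauma+TGF-β1 against Control. The genes of a comparison share its 8 libraries and are not independent. The transcripts of Nrgn, Prkaca and Camk2b, which were lower with TGF-β1, had a GC content of 58.6%, 54.9% and 53.9%, and that of Stim2, which was higher, 47.5%, against a median of 49.6% over all tested genes. With the GC correction Nrgn fell by 0.27 on the log2 scale (adjusted p = 0.0143 in limma) and Stim2 rose by 0.21 (adjusted p = 0.0445), while Camk2b gave −0.05 (adjusted p = 0.464). Of the 41 genes 27 had a log2 fold change above 0 as reported, 30 with quantile normalization and 22 with the GC correction. The parts of GC content and gene length in the differences were not tested beyond the corrections for them.

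**Figure D5:**
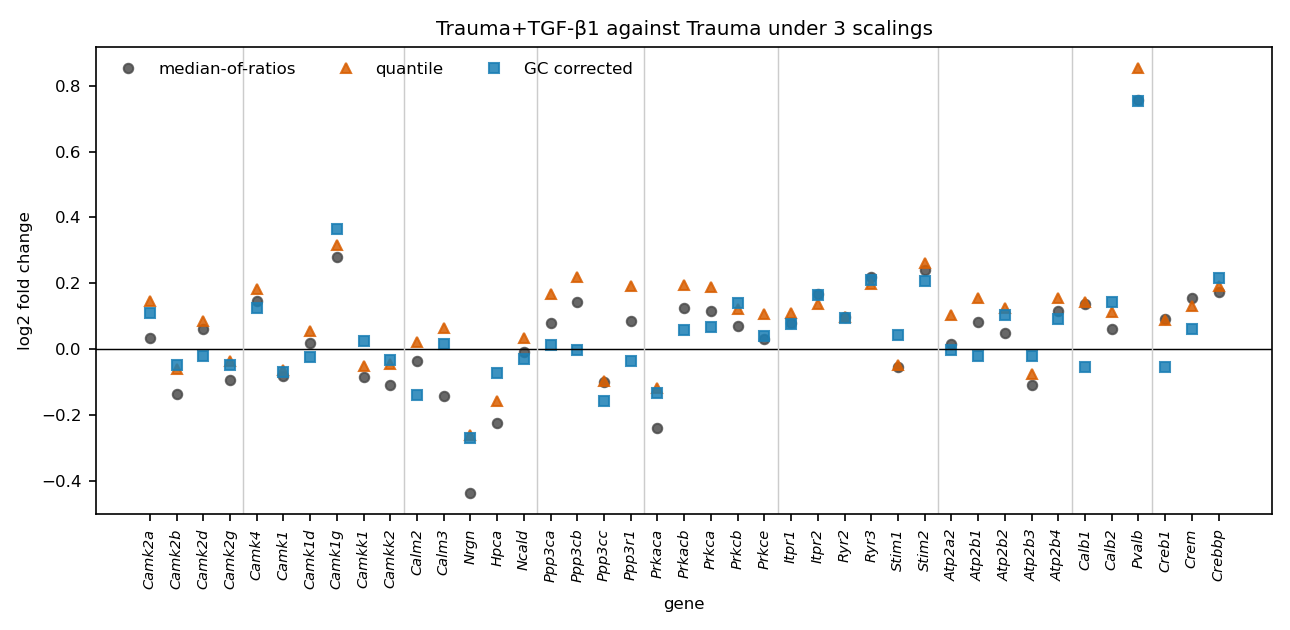
Log2 fold change in Trauma+TGF-β1 against Trauma of the 41 tested calcium genes, by class, with the scaling as reported (circles), quantile normalization (triangles) and a loess correction for transcript GC content (squares). Nrgn and Prkaca lie below 0 and Stim2 and Camk1g above 0 with all 3, while Calm3 and the calcineurin genes Ppp3cb and Ppp3r1 change sides.

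A wider list of 88 other calcium genes, 78 of them tested, gives the setting. In Trauma against Control 4 were higher and 2 lower (median −0.004), in Trauma+TGF-β1 against Trauma 2 higher and 9 lower (median −0.037) and in Trauma+TGF-β1 against Control 4 higher and 17 lower (median −0.038). In the same order 7.69%, 14.1% and 26.9% of the 78 were called, beside 6.00%, 12.1% and 16.6% of all tested genes. After the scratch the sensor gene Vsnl1 fell (−0.19, standard error 0.04, adjusted p = 0.0268). Itprip, an IP3 receptor-interacting protein gene (0.94, standard error 0.19, adjusted p = 0.0127), and Slc24a4, a sodium/calcium exchanger gene (0.67, standard error 0.17, adjusted p = 0.035), rose. With TGF-β1 against Trauma the CaM kinase II inhibitor gene Camk2n2 fell from a mean of 134 to 85.1 FPKM (−0.68, standard error 0.13, adjusted p = 0.0126), and Kcnip3, a calcium sensor that binds potassium channels and DNA, fell from 9.13 to 6.52 FPKM (−0.48, standard error 0.06, adjusted p = 0.00299). Slc8a1, the sodium/calcium exchanger gene (0.25, adjusted p = 0.0343), and Micu3, a regulator of the mitochondrial uniporter (0.23, adjusted p = 0.0167), rose in the same comparison. Against Control the treated cultures had less of the calmodulin-binding Pcp4 (−0.93, standard error 0.26, adjusted p = 0.0325) and Camk2n2 (−0.64, standard error 0.13, adjusted p = 0.00808) and more of Itprip (0.75, standard error 0.19, adjusted p = 0.0182) and the protein kinase C gene Prkcd (0.67, standard error 0.17, adjusted p = 0.0185). The libraries of Pcp4 overlapped between the groups. All of these p-values are from the same limma fit.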

How the data were processed

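Poly(A) RNA of 12 libraries in 3 groups was sequenced as paired reads. According to the study's methods and the submitters' processing notes the authors aligned reads with HISAT2 (2.0.5) to mm10, counted them per gene with featureCounts and deposited FPKM, which divide counts by gene length and depth. FPKM times gene length gave whole reads for 100% of genes (tolerance 0.05), and the deposited FPKM were already scaled by median-of-ratios factors (all 12 recomputed factors were 1.0062). Library reads ranged from 15052486 to 17381671, and since no molecular identifiers are described their counting error is a lower limit.

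Here log2(FPKM + 0.1) was fitted for 15016 genes whose mean FPKM reached 0.5, with limma (3.58.1, R 4.3.3; eBayes with trend) over all 12 libraries, and 3 contrasts were adjusted by Benjamini-Hochberg (threshold 0.05). Fold changes are on this scale and understate the change of low genes. The authors' count test was not applied, since counts are recovered rather than deposited; voom on the recovered reads was an alternative, beside other pseudocounts, filters, scalings, corrections and leave-outs. Group labels came from the sample titles. All 43 genes are named, with every library's value for genes called in at least 1 comparison and the highest gene of each class, and the others by range; of the 88 other calcium genes, the 2 higher and 2 lower with the largest change among those called and at 1 FPKM or more (1 gene that this rule names is not reported here). The members and lists were chosen with earlier results of these data known. Promoter windows came from RefSeq (GRCm38.p6). The procedure was tested on simulated data.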

Additional observations from a re-analysis of the deposited data

Results flagged for a closer look

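In 7 of 129 group-by-gene sets of 4 libraries the highest or lowest library stood apart by Dixon's test, where chance gives about 1 in 20. Camk1g was at 15.4 FPKM in Control replicate 1, against 11.4 to 11.7 in the other 3 Control libraries. Stim1 was at 6.92 FPKM in Control replicate 1, against 7.82 to 7.98. Prkcb was at 35.45 FPKM in Control replicate 4, against 32.8 to 33. Calb1 was at 7.455 FPKM in Control replicate 3, against 6.88 to 6.93. Itpr3 was at 0.165 FPKM in Control replicate 4, against 0.0937 to 0.0987. Ncald was at 23.9 FPKM in Trauma replicate 3, against 21.6 to 21.8. Ryr3 was at 2.31 FPKM in Trauma replicate 3, against 2.12 to 2.14. The cause was not tested in any of these.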

How the results depend on the processing

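Of the 33 calls among calcium genes, 12 held in every setting and every leave-out: 4 of 12 in Trauma against Control (Camkk2, Ppp3ca, Prkcb and Stim2), 1 of 4 in Trauma+TGF-β1 against Trauma (Nrgn) and 7 of 17 in Trauma+TGF-β1 against Control (Camk1g, Camkk1, Camkk2, Nrgn, Hpca, Ncald and Crem). Leaving out 1 library gave 6 to 13, 1 to 5 and 13 to 18 calcium genes in the 3 comparisons, and 489 to 875, 651 to 1698 and 1489 to 3389 among all tested genes. In Trauma+TGF-β1 against Trauma the 4 calls became 12 with quantile normalization, 9 with voom, 7 in a fit of the 2 groups alone and 2 with the GC correction and a replicate block. Of all tested genes, 901 differed in Trauma against Control, which became 575 without a filter, 1366 with the GC correction and block and 518 in the fit of 2 groups. The 1819 of Trauma+TGF-β1 against Trauma became 987 without a filter, 818 with the GC correction, 740 with that and the block and 876 with the length correction and block. The 2487 of Trauma+TGF-β1 against Control became 1601 in the fit of 2 groups. Calm3 turned from −0.24 to 0.0629 in Trauma+TGF-β1 against Control with quantile normalization. Among all tested genes the split of higher and lower calls was 655 and 223 in Trauma against Control and 1340 and 1095 in Trauma+TGF-β1 against Control with scaling to total reads, and 1125 and 927 in Trauma+TGF-β1 against Trauma with quantile normalization, against 496 and 405, 922 and 1565, and 661 and 1158 as reported. In Trauma against Control it was 487 and 761 with the GC correction, 504 and 862 with that and the block, and 474 and 523 with the length correction. The cause of these shifts was not tested. Scaling to total reads and the fit without a variance trend were chosen after seeing the data. The replicate numbers gave no clear sign of pairing. Deviations of same-numbered libraries correlated at 0.0762 or less, and some libraries but not all ran closest with their own number. Such weak correlations cannot exclude a shared culture or preparation. With a replicate block 11, 4 and 16 calcium genes were called.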
